A study of Mus musculus with 12 samples.

Results

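The 8 genes described here code for transcription factors that set the identity of microglia and other macrophages (Spi1, Irf8, Runx1, Cebpa and Mef2c), for the receptor Csf1r, for the calcium-binding marker Aif1, and for Hexim1, an inhibitor of transcription elongation. They were taken by name, through the RefSeq accessions that the array files give for each probe. The accessions led to 15 probes of 41174 distinct probes on the array, and to 8 of 17305 distinct gene symbols. All 15 probes, of which the brightest stands for its gene below, were well above background on all 12 arrays, so all 8 genes were among the 19317 genes and transcripts tested. All groups used BV2, a single immortalised cell line derived from mouse microglia, which are the macrophages of brain tissue. They were left untreated, or received for 6 h either 20 µM curcumin (the yellow polyphenol of turmeric root), or LPS (lipopolysaccharide, a bacterial wall component sensed by Toll-like receptor 4) at 100 ng/ml, or both agents together, here LPS+curcumin. Each group has 3 one-colour arrays, numbered by replicate. A gene is called changed where its Benjamini-Hochberg adjusted p over all tested genes, from a limma fit, is below 0.05, and a change is given as a log2 difference ± SE unless stated otherwise. The labels name no vehicle control, and do not say whether replicates were separate cultures, so the p-values below measure a spread between arrays that may be technical.

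PU.1, the product of Spi1, is an ETS-family factor on which the macrophage lineage depends, and IRF8 binds many of its sites together with PU.1. RUNX1 and C/EBP alpha, the product of Cebpa, act earlier in myeloid development and, with PU.1, drive Csf1r, the receptor for CSF1 and IL-34 whose signal keeps microglia alive. MEF2C is a factor enriched in mature microglia, and AIF1 (also called IBA1) is an actin-bundling protein used as the standard microglial stain. HEXIM1, together with the 7SK RNA, holds the elongation kinase P-TEFb (CDK9 with cyclin T) in an inactive form.

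Promoter sequences are shown for the 3 genes that were lower after curcumin alone, Irf8, Runx1 and Hexim1, and beside them for Aif1, which was not called in any comparison. They are the 250 bases before an annotated start, from RefSeq on build GRCm38.p6, on the gene's own strand. The RefSeq table held 10 such windows for 6 of the 8 genes (Irf8, Runx1, Cebpa, Mef2c, Aif1 and Hexim1) and none for Spi1 and Csf1r. Irf8 is printed at chr8:120736108-120736357 on the plus strand (a second window, at chr8:120738389-120738638, is not printed), Runx1 has a distal window at chr16:92826075-92826324 and a proximal one at chr16:92697330-92697579, both on the minus strand, Hexim1 lies at chr11:103116075-103116324 on the plus strand, and Aif1 at chr17:35176053-35176302 on the minus strand. Capitals mark a match to any of the 6 motifs searched on both strands: GAGGAAG (a PU.1 type ETS site), TGTGGT (RUNX), TTGCGCAA (C/EBP), GAAANNGAA (interferon response element), TAAAAATAG (1 form of the MEF2 site) and TATAAA (the core of a TATA box).
Irf8: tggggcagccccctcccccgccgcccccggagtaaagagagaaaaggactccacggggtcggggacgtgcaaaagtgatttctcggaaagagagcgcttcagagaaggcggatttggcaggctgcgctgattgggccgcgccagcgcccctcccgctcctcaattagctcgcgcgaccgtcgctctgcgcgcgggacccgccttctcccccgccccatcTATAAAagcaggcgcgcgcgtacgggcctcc
Runx1, distal: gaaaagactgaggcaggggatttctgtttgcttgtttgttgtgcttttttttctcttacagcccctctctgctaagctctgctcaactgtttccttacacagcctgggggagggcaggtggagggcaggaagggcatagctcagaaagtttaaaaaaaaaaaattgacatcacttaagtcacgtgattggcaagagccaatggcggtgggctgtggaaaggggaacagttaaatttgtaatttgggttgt
Runx1, proximal: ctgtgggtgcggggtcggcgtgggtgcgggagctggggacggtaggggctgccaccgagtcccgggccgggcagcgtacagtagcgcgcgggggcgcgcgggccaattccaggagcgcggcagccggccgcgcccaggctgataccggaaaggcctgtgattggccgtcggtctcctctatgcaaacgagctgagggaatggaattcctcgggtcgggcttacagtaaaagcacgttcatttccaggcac
Hexim1: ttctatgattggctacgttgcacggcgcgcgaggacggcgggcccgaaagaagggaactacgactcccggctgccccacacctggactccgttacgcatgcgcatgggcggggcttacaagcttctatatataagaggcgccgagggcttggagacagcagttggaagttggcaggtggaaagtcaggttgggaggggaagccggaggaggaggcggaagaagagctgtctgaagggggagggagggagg
Aif1: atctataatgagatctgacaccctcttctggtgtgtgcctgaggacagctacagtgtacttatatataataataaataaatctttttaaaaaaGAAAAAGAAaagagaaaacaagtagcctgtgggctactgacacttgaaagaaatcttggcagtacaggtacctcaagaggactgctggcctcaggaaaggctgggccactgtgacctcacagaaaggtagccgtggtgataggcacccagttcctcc

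The printed Irf8 window held a TATAAA match starting 31 bases before the annotated start, and the window of Cebpa, not printed, held one 30 bases before its start. The Aif1 window held a GAAANNGAA match starting 157 bases before the start, and neither Runx1 window, nor that of Hexim1, nor the second of Irf8 held any of the 6 motifs. Among 32851 mouse windows of the same length, 12.4% held TATAAA, 10.6% GAGGAAG, 14.0% TGTGGT, 0.164% TTGCGCAA, 7.13% GAAANNGAA and 0.454% TAAAAATAG. Of the 10 windows of the members, 4 held TATAAA, 1 GAGGAAG (the second window of Mef2c) and 1 GAAANNGAA. The matches describe letters in these windows and show no binding.

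Signals were scaled in 2 ways, and the choice matters for these genes. On the main scaling, each log2 signal is given relative to the 75th percentile of its own array; on the other, relative to spike-in RNAs (E1A) added by the laboratory. The 75th percentile lay below the spike-ins by -1.09 ± 0.18 (SD, n = 3) log2 units in untreated cells, -1.37 ± 0.15 with LPS, -2.20 ± 0.15 with curcumin and -2.11 ± 0.66 with LPS+curcumin. Hence after curcumin alone the median of all tested genes was 0.41 log2 units higher on the first scaling and -0.69 on the second. Values below are on the 75th percentile unless spike-ins are named. The share of spots well above background ran from 58.0% to 65.9% over the 12 arrays, and no spot was saturated. LPS+curcumin replicate 1 stood apart: over all genes it correlated at a mean of 0.982 with LPS and 0.950 with curcumin arrays, and calls that change without it are given both ways. Each slide held 1 array of each group, always in the same position, so group and position cannot be told apart. Of 21 microglia and macrophage markers on the array, 20 were well above background on all 12 arrays. Of 15 tested markers of 7 other cell types, 7 were higher and 0 lower after curcumin alone on the 75th percentile (Rbfox3, S100b, Pecam1, Cd3e, Cd79a, Mpo and S100a8), and on spike-ins 2 were higher (Pecam1 and Mpo) and 4 lower. Of all 19317 genes tested, 4229 were called higher and 1406 lower in this comparison on the 75th percentile, and 1397 higher and 8211 lower on spike-ins. Pecam1, an endothelial adhesion molecule, was above background on no untreated and on all 3 curcumin arrays, at least 15.5-fold higher, while Cdh5 of the same list was above background on no array. Pecam1 entered the tests only through its curcumin arrays, so its p-values are not given. Kdr, also of that list and above background on all 12 arrays, was at -0.47 ± 0.36 after curcumin (adjusted p = 0.300). On spike-ins it was lower (-1.58 ± 0.26, adjusted p = 0.0026). The mean signal of Kdr was 5025 untreated and 2111 with curcumin, against 1.5 and 51.0 for Pecam1. The neuronal markers Tubb3 and Rbfox3 were above background on 12 and 11 arrays and Snap25, Map2, Gad1 and Slc17a7 on none, and the astrocyte markers S100b on 12 and Gfap on none. Of 4 neutrophil markers, Mpo was higher after curcumin (3.24 ± 0.52, adjusted p = 0.0027; 2.14 ± 0.36 and 0.0034 on spike-ins), S100a8 was higher on the 75th percentile (0.95 ± 0.25, adjusted p = 0.020) and at -0.15 ± 0.22 on spike-ins, and Elane and S100a9 were above background on no array. The summed level of the neutrophil list ran from 0.0803 to 0.0941 times the 75th percentile in untreated cells, 0.311 to 0.432 with curcumin, 0.0928 to 0.106 with LPS and 0.0983 to 0.374 with LPS+curcumin, that of the endothelial list from 4.99 to 5.53 in untreated cells, 3.56 to 4.57 with curcumin, 4.76 to 5.26 with LPS and 1.59 to 5.43 with LPS+curcumin. The part of these markers in the results below was not tested.

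After curcumin alone, 3 of the 8 genes passed the test and all 3 were lower: Irf8, Runx1 and Hexim1. Of all genes tested, 29.2% were called in this comparison and 7.28% were called lower. Set against the median of all tested genes, a gap that is the same on both scalings, Irf8 lay at -2.15, Runx1 at -2.05, Hexim1 at -2.01, Cebpa at -1.39, Spi1 at -0.79, Mef2c at -0.67, Csf1r at -0.32 and Aif1 at 0.26 log2 units. On spike-in scaling, the same 3 genes and Mef2c, Cebpa and Csf1r were lower (6 of 8), where 49.7% of all genes were called and 42.5% called lower. With LPS alone, 0 of 8 genes passed in the limma fit, against 5.73% of all genes, although 3 of the 8 had an unadjusted p below 0.05, as did 15.6% of all genes. Spi1 and Mef2c passed without LPS+curcumin replicate 1, where 9.5% of all genes were called. On spike-in scaling Mef2c was lower (1 of 8, where 3.2% of all genes were called and 1.38% called lower). With LPS+curcumin against LPS, Spi1, Irf8 and Runx1 were lower on both scalings (3 of 8), where 18.7% of all genes were called on the 75th percentile, 5.99% lower, and 17% on spike-ins, 12.2% lower. With LPS+curcumin against untreated cells, Irf8 was lower on the 75th percentile (1 of 8, where 24.5% of all genes were called and 6.26% called lower), and 6 of 8 on spike-ins (Irf8, Mef2c, Runx1, Cebpa, Csf1r and Hexim1, where 47.6% were called and 41.3% called lower). Without LPS+curcumin replicate 1 these counts became 4 of 8 against LPS and 4 of 8 against untreated cells, while 54.8% and 53.6% of all genes were then called, and on spike-ins 5, 7 and, after curcumin alone, 7 of 8, where 55%, 69.6% and 63.2% of all genes were called. On the 75th percentile, the count after curcumin alone fell to 1 without untreated replicate 1 or 2 or curcumin replicate 3. Of all genes, 16.1%, 14.3% and 13% were then called, against 29.2% with all 12 arrays. The count against LPS fell to 1 without any 1 of the 3 LPS arrays or LPS+curcumin replicate 2 or 3. Of all genes, 5.61% to 11.1% were then called, against 18.7% with all 12 arrays. On spike-ins, the count against LPS was 1 without any 1 of these 5 arrays or untreated replicate 2, and that for LPS+curcumin against untreated cells was 2 without untreated replicate 1 or 2 or LPS+curcumin replicate 2 or 3. In the latter comparison, 21% of all genes were called on spike-ins without untreated replicate 1, against 47.6% with all 12 arrays. For LPS+curcumin against LPS, the share without that array was 10.9%, against 17% with all 12 arrays. The falls in these counts are thus not read as particular to the 8 genes. No gene of the 8 was called higher in any comparison on either scaling. In this bulk RNA, fewer cells expressing a gene and less RNA per cell cannot be told apart. The comparisons against untreated cells share the same 3 control arrays.

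**Figure D1:**
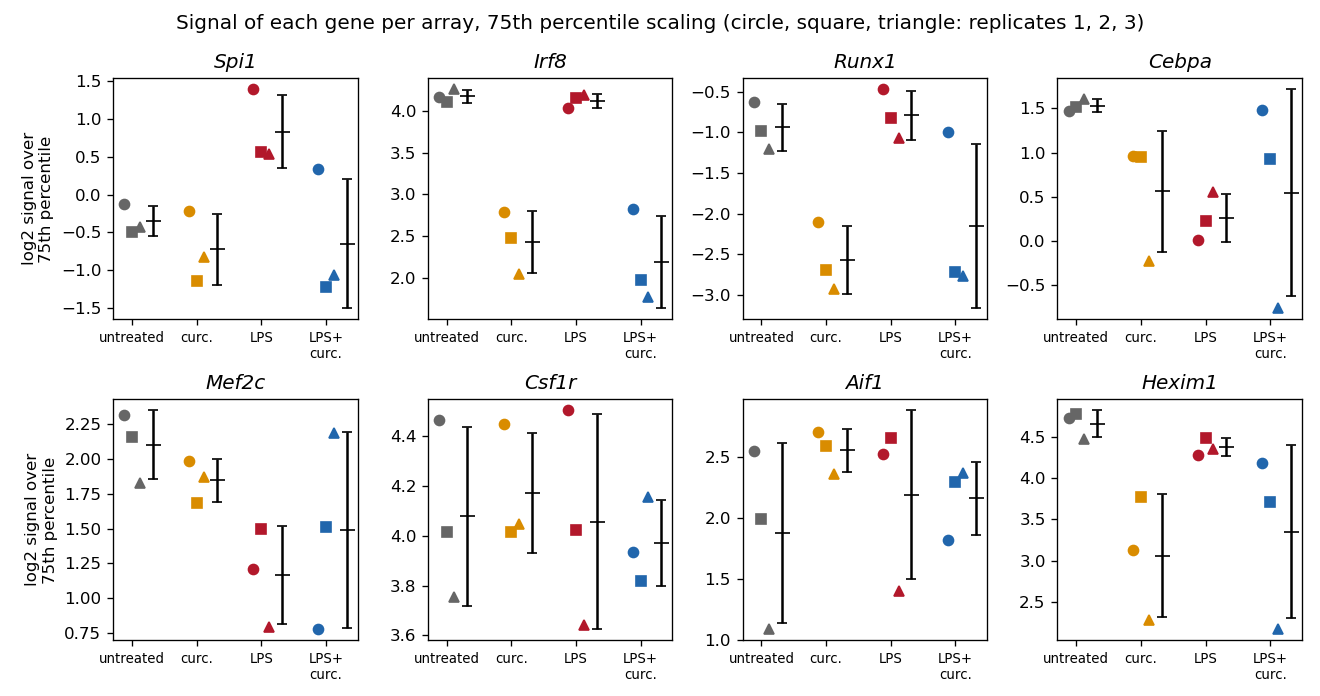
Log2 signal of each of the 8 genes relative to the array's 75th percentile (y axis), by group (x axis); circles, squares and triangles are replicates 1, 2 and 3, and the bar is the mean ± SD of 3 arrays. For Irf8, the 6 arrays with curcumin lie between 1.77 and 2.82 and the 6 without it between 4.03 and 4.26.

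Irf8, the partner of PU.1, was lower in all 3 comparisons of cells with curcumin against cells without it, on both scalings. Its log2 signal relative to the 75th percentile was 4.16, 4.10 and 4.26 on the untreated arrays, 4.03, 4.15 and 4.19 with LPS, 2.78, 2.48 and 2.04 with curcumin and 2.82, 1.98 and 1.77 with LPS+curcumin (replicates 1 to 3 in each). All 6 arrays with curcumin were below all 6 without it, and the LPS and untreated arrays overlapped. The mean levels were ordered LPS+curcumin (2.19 ± 0.56, SD, n = 3), curcumin (2.43 ± 0.37), LPS (4.12 ± 0.08) and untreated (4.17 ± 0.08), and the neighbours within the lower pair and within the upper pair differed by less than an SD. Curcumin alone lowered Irf8 by a log2 difference of -1.74 ± 0.28 (SE, adjusted p = 0.0021), to 0.299 of the untreated level, and the difference was -2.85 ± 0.49 on spike-ins (adjusted p = 0.0031). With LPS present, curcumin lowered it by -1.93 ± 0.28 (adjusted p = 0.0022; -2.67 ± 0.49 and 0.0070 on spike-ins). Against untreated cells, LPS+curcumin gave -1.99 ± 0.28 (adjusted p = 0.0015; -3.00 ± 0.49 and 0.0032 on spike-ins). The slides, taken 1 at a time, gave -1.38, -1.63 and -2.22 for curcumin alone and -1.21, -2.18 and -2.42 for LPS+curcumin against LPS. LPS alone left Irf8 within -0.66 to 0.56 of the untreated level (95% interval of the log2 difference, adjusted p = 0.994).

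A second, dimmer Irf8 probe also passed in all 3 comparisons with curcumin, at -1.59 ± 0.30 for curcumin alone (adjusted p = 0.0043), -1.77 ± 0.30 against LPS (adjusted p = 0.0041) and -1.91 ± 0.30 for LPS+curcumin against untreated cells (adjusted p = 0.0025). The Irf8 call held on both scalings without any 1 of the 12 arrays in these 3 comparisons; without LPS+curcumin replicate 1 the difference from LPS was -2.25 (adjusted p = 1.4e-05). With another background correction (normexp), the call for curcumin alone held (-2.46, adjusted p = 0.014), and the other two were lost at sizes of -1.96 (adjusted p = 0.090) and -2.04 (adjusted p = 0.072).

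Spi1, which codes for PU.1, passed the test for curcumin on LPS-treated cells and, with all 12 arrays, missed it on cells without LPS. Its log2 signal was -0.12, -0.50 and -0.43 in untreated cells, 1.39, 0.56 and 0.54 with LPS, -0.22, -1.14 and -0.82 with curcumin and 0.34, -1.22 and -1.06 with LPS+curcumin. Every LPS array was above every untreated and every LPS+curcumin array, and the curcumin and untreated arrays overlapped. The means ran from curcumin (-0.72 ± 0.47, SD, n = 3) through LPS+curcumin (-0.65 ± 0.86) and untreated (-0.35 ± 0.20) to LPS (0.83 ± 0.48); the first 3 lay within an SD of their neighbours. LPS+curcumin was below LPS by -1.48 ± 0.41 (adjusted p = 0.032), and by -2.22 ± 0.60 on spike-ins (adjusted p = 0.033). This call was lost without LPS replicate 1, 2 or 3 or without LPS+curcumin replicate 2 or 3 (adjusted p from 0.061 to 0.134), and without LPS+curcumin replicate 1 the difference was -1.97 (adjusted p = 0.00054). LPS alone gave 1.18 ± 0.41 (adjusted p = 0.153), with slide values of 1.51, 1.06 and 0.97. That difference passed with slide as a block (adjusted p = 0.014) and without LPS+curcumin replicate 1 (adjusted p = 0.022); on spike-ins it was 0.91 ± 0.60 (adjusted p = 0.487). Curcumin alone gave -0.38 ± 0.41 (adjusted p = 0.476), and -1.48 ± 0.60 on spike-ins (adjusted p = 0.058), where it passed without LPS+curcumin replicate 1 (adjusted p = 0.0014) and with slide as a block (adjusted p = 0.014). LPS+curcumin against untreated cells gave -0.30 ± 0.41 (adjusted p = 0.598) and, on spike-ins, -1.31 ± 0.60 (adjusted p = 0.087), which passed without LPS+curcumin replicate 1 at -2.18 (adjusted p = 0.0002) and with the block (adjusted p = 0.023). The difference between the effects of curcumin with and without LPS was -1.10 ± 0.58 and did not pass (adjusted p = 0.902), so the effects were not shown to differ.

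Runx1, a core-binding factor of haematopoiesis, was lower after curcumin at its brighter probe, while its second probe did not pass on the 75th percentile. The brighter probe read -0.63, -0.99 and -1.20 in untreated cells, -0.47, -0.82 and -1.07 with LPS, -2.11, -2.69 and -2.92 with curcumin and -0.99, -2.72 and -2.76 with LPS+curcumin. The curcumin arrays were all below the untreated ones, whereas LPS+curcumin replicate 1 fell among the LPS and untreated arrays and its other 2 replicates were far below. In mean level, curcumin (-2.58 ± 0.42, SD, n = 3) and LPS+curcumin (-2.16 ± 1.01) came below untreated (-0.94 ± 0.29) and LPS (-0.79 ± 0.30), with no difference beyond the SD inside either pair. Curcumin alone gave -1.64 ± 0.43 (adjusted p = 0.019), to 0.321 of the untreated level, and -2.74 ± 0.65 on spike-ins (adjusted p = 0.0086). Leaving out any 1 of untreated replicates 1 and 2 and curcumin replicates 2 and 3 ended the call on the 75th percentile (adjusted p from 0.055 to 0.076). LPS+curcumin against LPS gave -1.37 ± 0.43 (adjusted p = 0.048), a call that was lost without any 1 array other than LPS+curcumin replicate 1 (adjusted p from 0.056 to 0.174); without that array it was -1.96 (adjusted p = 0.00023). LPS+curcumin against untreated cells gave -1.22 ± 0.43 (adjusted p = 0.061), which passed without that array at -1.80 (adjusted p = 0.0004) and with slide as a block (adjusted p = 0.012). The second probe, designed to another Runx1 transcript accession, gave -0.45 ± 0.18 for curcumin alone (adjusted p = 0.077) and -0.43 ± 0.18 against LPS (adjusted p = 0.111); on spike-ins both passed, at -1.56 ± 0.33 (adjusted p = 0.0062) and -1.17 ± 0.33 (adjusted p = 0.037). LPS alone gave 0.15 ± 0.43 (adjusted p = 0.990), a value that turned to -0.12 on spike-ins.

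Cebpa, the C/EBP family member of early myeloid cells, was highest in untreated cells and varied widely wherever curcumin was present. Its arrays read 1.47, 1.52 and 1.61 in untreated cells, 0.01, 0.22 and 0.55 with LPS, 0.96, 0.95 and -0.23 with curcumin and 1.48, 0.93 and -0.77 with LPS+curcumin. The untreated arrays were above all LPS and all curcumin arrays, and LPS+curcumin spanned from the untreated level (replicate 1) to the lowest array of all (replicate 3). The means were 0.26 ± 0.27 (SD, n = 3) with LPS, 0.55 ± 1.17 with LPS+curcumin, 0.56 ± 0.69 with curcumin and 1.53 ± 0.07 untreated, the first 3 of which did not differ beyond their spread. No comparison passed on the 75th percentile: LPS alone gave -1.27 ± 0.50 (adjusted p = 0.224), curcumin alone -0.97 ± 0.50 (adjusted p = 0.146) and LPS+curcumin against untreated cells -0.99 ± 0.50 (adjusted p = 0.163). The LPS and curcumin differences passed without LPS+curcumin replicate 3 (adjusted p = 0.037 and 0.030), and the third without LPS+curcumin replicate 1 (-1.45, adjusted p = 0.023). On spike-ins, curcumin alone gave -2.08 ± 0.70 (adjusted p = 0.031), lost without any 1 of the 3 untreated arrays or of curcumin replicates 2 and 3 (adjusted p from 0.052 to 0.116). A second Cebpa probe gave -1.19 ± 0.40 with LPS (adjusted p = 0.137); its spot on LPS+curcumin replicate 2 was marked as an outlier and dropped.

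Mef2c, a MADS-box factor, was the member lowered by LPS, on 1 of the 2 scalings. Its arrays read 2.32, 2.16 and 1.83 in untreated cells, 1.21, 1.5 and 0.79 with LPS, 1.99, 1.68 and 1.87 with curcumin and 0.77, 1.51 and 2.19 with LPS+curcumin. All LPS arrays were below all untreated and all curcumin arrays, and LPS+curcumin overlapped every other group. The means were 1.17 ± 0.35 (SD, n = 3) with LPS, 1.49 ± 0.71 with LPS+curcumin, 1.85 ± 0.15 with curcumin and 2.10 ± 0.25 untreated, and no neighbours in this order passed a test of their difference on this scaling. LPS gave -0.93 ± 0.33 (adjusted p = 0.155), with slide values of -1.11, -0.66 and -1.04, and passed without LPS+curcumin replicate 1 or 3 (adjusted p = 0.032 and 0.048). On spike-ins LPS gave -1.21 ± 0.26 (adjusted p = 0.030), lost without any 1 of the untreated arrays 1 and 2, the 3 LPS arrays and the curcumin arrays 2 and 3 (adjusted p from 0.051 to 0.149). Curcumin alone gave -0.25 ± 0.33 (adjusted p = 0.543), and on spike-ins -1.36 ± 0.26 (adjusted p = 0.0046). LPS+curcumin against untreated cells gave -0.61 ± 0.33 (adjusted p = 0.179) and, on spike-ins, -1.63 ± 0.26 (adjusted p = 0.0030).

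**Figure D2:**
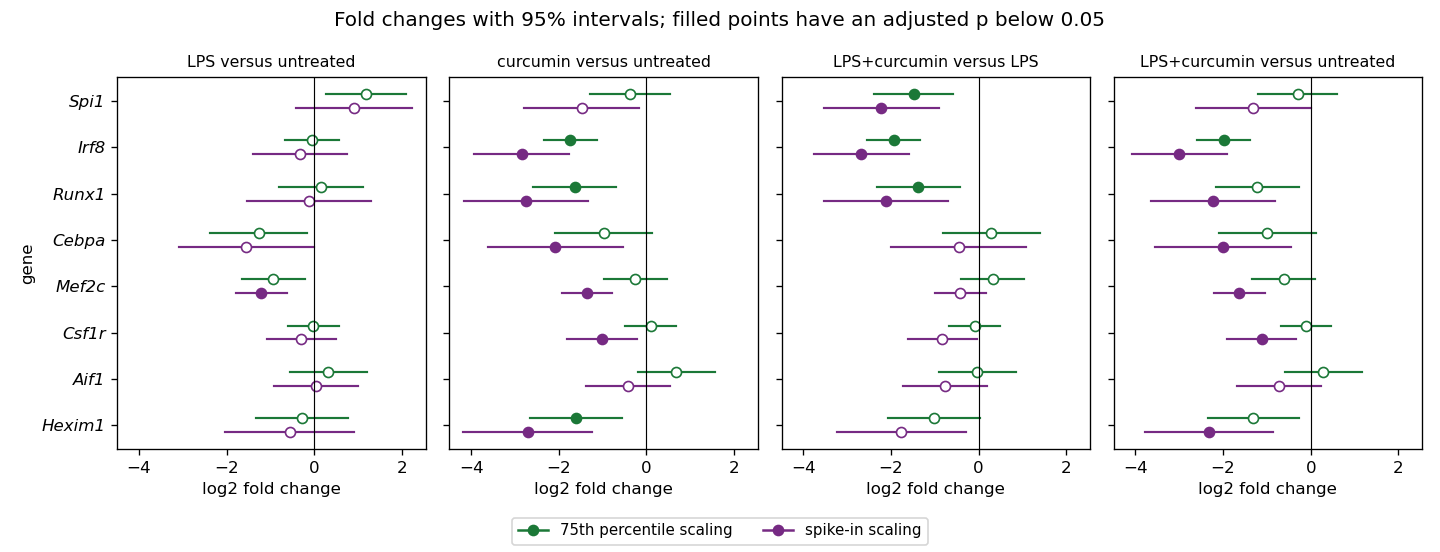
Log2 fold change (x axis) of each of the 8 genes (y axis) in 4 comparisons, with 95% intervals from the limma fit; green is 75th percentile scaling, purple spike-in scaling, and filled points have an adjusted p below 0.05. Irf8 is filled on both scalings in the 3 comparisons with curcumin, and Csf1r changes sides of 0 between scalings after curcumin alone (0.09 and -1.01).

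Csf1r, the receptor that RUNX1, C/EBP alpha and PU.1 drive, did not pass in any comparison on the 75th percentile. Its arrays read 4.47, 4.01 and 3.75 in untreated cells, 4.50, 4.02 and 3.64 with LPS, 4.45, 4.02 and 4.05 with curcumin and 3.93, 3.82 and 4.16 with LPS+curcumin. The 4 groups overlapped, and their means, from 3.97 ± 0.17 (SD, n = 3) with LPS+curcumin through 4.06 ± 0.43 with LPS and 4.08 ± 0.36 untreated to 4.17 ± 0.24 with curcumin, did not differ beyond their spread. Replicate 1 was the highest array in the untreated, LPS and curcumin groups. Curcumin alone gave 0.09 ± 0.26 (95% interval -0.49 to 0.67, adjusted p = 0.789), and LPS gave -0.02 ± 0.26 (95% interval -0.60 to 0.56, adjusted p = 0.999). The interval for curcumin thus leaves out a fall to the size measured for Irf8, Runx1 or Hexim1 on the same scaling. On spike-ins the sign turned: curcumin gave -1.01 ± 0.36 (adjusted p = 0.037) and LPS+curcumin against untreated cells -1.12 ± 0.36 (adjusted p = 0.028). The first of these calls was lost without any 1 of untreated replicates 1 and 2, curcumin replicates 2 and 3 and LPS replicate 2 (adjusted p from 0.052 to 0.141), and the second without any 1 of untreated replicates 1 and 2 and LPS+curcumin replicates 2 and 3 (adjusted p from 0.080 to 0.107). Against LPS, LPS+curcumin gave -0.83 ± 0.36 on spike-ins (adjusted p = 0.119), which passed without LPS+curcumin replicate 1 at -1.18 (adjusted p = 0.0083) and with slide as a block (adjusted p = 0.026). The other 2 Csf1r probes gave 0.01 ± 0.29 and -0.21 ± 0.33 for curcumin alone on the 75th percentile, and -1.09 ± 0.43 (adjusted p = 0.054) and -1.31 ± 0.43 (adjusted p = 0.027) on spike-ins. The median of all genes was 0.41 on the first scaling and -0.69 on the second, and Csf1r stood at -0.32 from it on either.

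Aif1, the IBA1 marker, did not pass in any comparison on either scaling. Its arrays read 2.55, 1.99 and 1.09 in untreated cells, 2.52, 2.66 and 1.40 with LPS, 2.71, 2.59 and 2.37 with curcumin and 1.82, 2.30 and 2.37 with LPS+curcumin. Replicate 3 was the lowest array of the untreated and of the LPS group, and all groups overlapped. The means were 1.88 ± 0.74 (SD, n = 3) untreated, 2.16 ± 0.30 with LPS+curcumin, 2.19 ± 0.69 with LPS and 2.56 ± 0.17 with curcumin, none beyond its neighbour's spread. Curcumin alone gave 0.68 ± 0.40 (adjusted p = 0.194) and, with the sign turned, -0.43 ± 0.44 on spike-ins (adjusted p = 0.402). On spike-ins, LPS+curcumin against untreated cells was -0.73 ± 0.44 (adjusted p = 0.176), and it passed without untreated replicate 3 (-1.23, adjusted p = 0.029) and with slide as a block (adjusted p = 0.045). The second Aif1 probe gave 0.62 ± 0.36 for curcumin alone on the 75th percentile.

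Hexim1, the P-TEFb inhibitor, was lower after curcumin at its brighter probe. That probe read 4.73, 4.77 and 4.47 in untreated cells, 4.28, 4.49 and 4.35 with LPS, 3.13, 3.77 and 2.28 with curcumin and 4.18, 3.71 and 2.16 with LPS+curcumin. Every curcumin and LPS+curcumin array was below every untreated and every LPS array, with replicate 3 the lowest of both curcumin groups. The means were 3.06 ± 0.74 (SD, n = 3) with curcumin, 3.35 ± 1.05 with LPS+curcumin, 4.37 ± 0.11 with LPS and 4.66 ± 0.16 untreated, the first 2 of them within their spread. Curcumin alone gave -1.60 ± 0.48 (adjusted p = 0.030), to 0.330 of the untreated level, and -2.70 ± 0.67 on spike-ins (adjusted p = 0.010). The call on the 75th percentile was lost without any 1 of the 3 untreated arrays and of curcumin replicates 1 and 3 (adjusted p from 0.063 to 0.122). LPS+curcumin gave -1.02 ± 0.48 against LPS (adjusted p = 0.141) and -1.31 ± 0.48 against untreated cells (adjusted p = 0.066). Without LPS+curcumin replicate 1 these were -1.43 (adjusted p = 0.021) and -1.72 (adjusted p = 0.0093), and the second also passed with slide as a block (adjusted p = 0.027). On spike-ins LPS+curcumin gave -1.76 ± 0.67 against LPS (adjusted p = 0.084), which passed without that array at -2.54 (adjusted p = 0.0019) and with the block (adjusted p = 0.045), and -2.32 ± 0.67 against untreated cells (adjusted p = 0.019). The second Hexim1 probe, of the same accession, gave -0.19 ± 0.25 for curcumin alone (adjusted p = 0.550) and -1.30 ± 0.29 on spike-ins (adjusted p = 0.0071), so the probes differed in size by more than their errors on the 75th percentile.

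**Figure D3:**
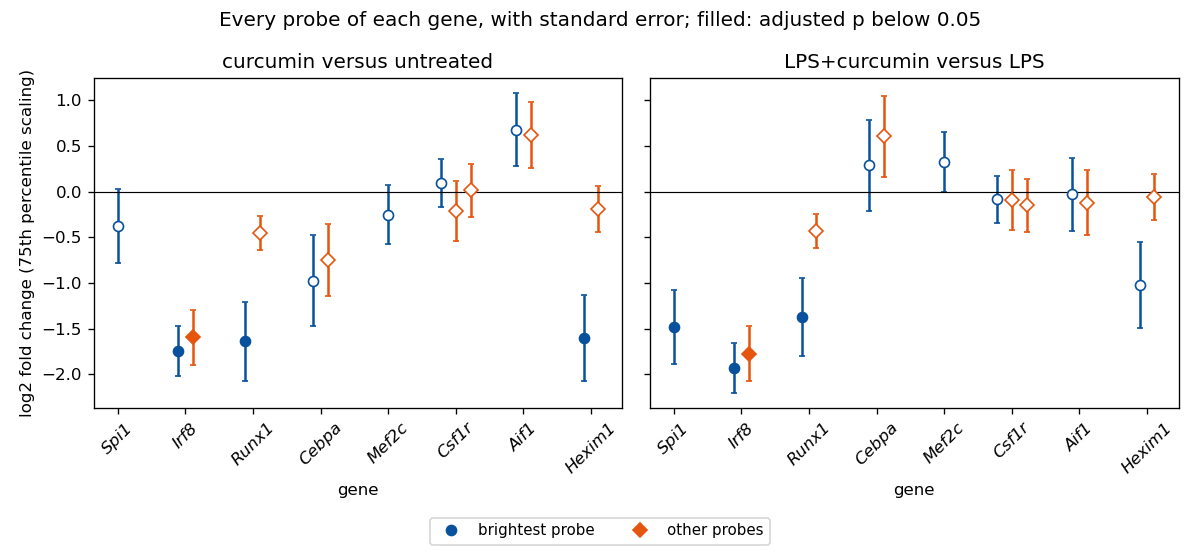
Log2 fold change on 75th percentile scaling (y axis) of every probe of the 8 genes (x axis), with SE from the limma fit; blue circles are the brightest probe of a gene, orange diamonds the others, and filled symbols have an adjusted p below 0.05. Both Irf8 probes are filled in both panels, while for Hexim1 and Runx1 the brightest probe lies below the other one.

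Between LPS+curcumin and curcumin, the comparison that asks what LPS changed in cells that had curcumin, 0 of 8 genes passed in the limma fit on either scaling, 0 of 8 had an unadjusted p below 0.05, and 0.212% of all genes were called (0.109% on spike-ins). Of all genes, 5.85% had an unadjusted p below 0.05 (4.97% on spike-ins). The differences ran from -0.39 (Aif1) to 0.42 (Runx1), and the 95% interval of Irf8 was -0.85 to 0.36. For the interaction, the curcumin difference in LPS-treated cells less that in cells given no LPS, 0 of 8 genes passed on either scaling, against 0.73% of all genes (0.29% on spike-ins). None had an unadjusted p below 0.05 on the 75th percentile and 1 had on spike-ins, Mef2c (0.94 ± 0.37, adjusted p = 0.761). Of all genes, 6.64% had one on the 75th percentile and 5.42% on spike-ins. The interaction values ran from -1.10 (Spi1) to 1.26 (Cebpa), with a 95% interval of -1.05 to 0.67 for Irf8.

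**Figure D4:**
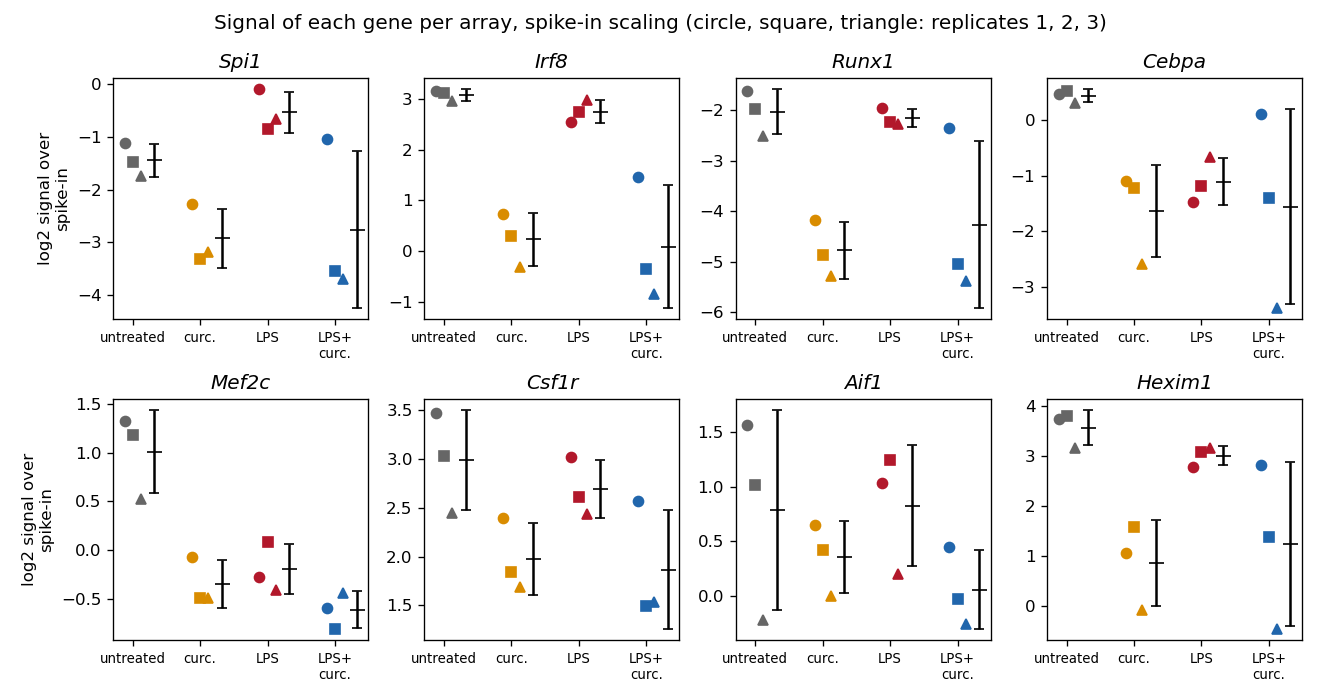
The same arrays with log2 signal relative to the spike-in RNAs (y axis), by group (x axis); circles, squares and triangles are replicates 1, 2 and 3, and the bar is the mean ± SD of 3 arrays. LPS+curcumin replicate 1 lies above the other 2 arrays of its group for Spi1, Irf8, Runx1, Cebpa, Csf1r, Aif1 and Hexim1.

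Among 22 tested genes of the CSF1R pathway, LPS raised 4 on the 75th percentile and none on spike-ins, where 1, Inpp5d, was lower. They were Src (1.64 ± 0.36, adjusted p = 0.023), a kinase below the receptor, Stat3 (1.43 ± 0.33, adjusted p = 0.028), the ligand Csf1 (2.07 ± 0.51, adjusted p = 0.039) and Lyn. The other ligand, Il34, was at 0.09 ± 0.35 (adjusted p = 0.993). Curcumin alone raised 2, the adaptor Gab2 (2.52 ± 0.36, adjusted p = 0.0013; 1.42 ± 0.26 and 0.0037 on spike-ins) and the ubiquitin ligase Cbl (1.55 ± 0.27, adjusted p = 0.0031; 0.44 ± 0.22 and 0.115 on spike-ins), and lowered 1, the signalling inhibitor Spry2 (-0.96 ± 0.29, adjusted p = 0.031). Against LPS, LPS+curcumin raised Gab2 and lowered 4, among them Lyn (-1.21 ± 0.20, adjusted p = 0.0041) and the phosphatase Ptpn6 (-1.32 ± 0.32, adjusted p = 0.019). Against untreated cells, LPS+curcumin raised 3 and lowered 3, among the latter the lipid phosphatase Inpp5d (-1.59 ± 0.31, adjusted p = 0.0063). On the 75th percentile, 5.73% of all genes were called with LPS and 29.2% after curcumin alone. With LPS+curcumin, 18.7% were called against LPS and 24.5% against untreated cells. The median change of the list after curcumin alone was 0.17 on the 75th percentile and -0.93 on spike-ins. On spike-ins 12 of the 22 were lower and 1 higher, while 42.5% of all genes were called lower. Without LPS+curcumin replicate 1, whose spread enters the shared error, 5 were higher and 3 lower after curcumin alone, and 6 higher and 6 lower against LPS, where 49.6% and 54.8% of all genes were then called. Between LPS+curcumin and curcumin 0 of 22 passed, with 3 at an unadjusted p below 0.05, and for the interaction 0 of 22 passed, with 2. Of all genes, 5.85% and 6.64% had an unadjusted p below 0.05 in these 2 comparisons.

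Among 33 tested of 40 other myeloid and microglial transcription factors, curcumin alone raised 5 and lowered 6 on the 75th percentile, and 4 and 6 of these were called on both scalings. Among those lowered were Fli1, an ETS factor (-1.78 ± 0.24, adjusted p = 0.0011), Elf1, Irf5, Klf4 and Zeb2. Gfi1, a repressor of myeloid genes, was above background on no untreated array and on all 3 curcumin arrays, at least 5.72-fold higher. It entered the tests only through its curcumin arrays, so its p-value is not given. Gfi1, Spib and Egr1 were each above background on 5 arrays. The mean signals of Spib and Egr1 were 4.1 and 1.6 in untreated cells and 16.5 and 16.4 with curcumin. The counts of genes raised with curcumin in this list may thus rest partly on genes that only curcumin arrays let into the tests. The close relative of Cebpa, Cebpb, was at 0.01 ± 0.46 after curcumin (adjusted p = 0.987) and at 1.03 ± 0.46 with LPS (adjusted p = 0.306). LPS raised Ets2 (1.66 ± 0.27, adjusted p = 0.0031), Cebpd (2.71 ± 0.58, adjusted p = 0.019) and Gfi1b and lowered Klf4 (-2.06 ± 0.43, adjusted p = 0.016); none of these 4 passed on spike-ins. Against LPS, LPS+curcumin raised 5 and lowered 8 of the 33, with Mef2a, a paralogue of Mef2c, raised (2.61 ± 0.55, adjusted p = 0.011) and Fli1 lowered (-1.31 ± 0.24, adjusted p = 0.0062). Without LPS+curcumin replicate 1 these counts were 8 and 14, those for LPS alone 6 and 2, and those for curcumin alone 5 and 11, where 54.8%, 9.5% and 49.6% of all genes were called. Against untreated cells, LPS+curcumin raised 5 and lowered 5. The list's median after curcumin alone was 0.01 on the 75th percentile and -1.10 on spike-ins. On spike-ins 18 were lower and 4 higher, while 42.5% of all genes were called lower. On the 75th percentile, 29.2% of all genes were called after curcumin alone and 5.73% with LPS. With LPS+curcumin, 18.7% were called against LPS and 24.5% against untreated cells.

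Of 16 tested genes of P-TEFb and the 7SK complex, curcumin alone raised 2 and lowered 2 on the 75th percentile, where 29.2% of all genes were called. Aff4, a scaffold of the super elongation complex, rose on both scalings (2.82 ± 0.39, adjusted p = 0.0012; 1.72 ± 0.22 and 0.00096 on spike-ins), and its relative Aff1 fell with Hexim1 (-0.96 ± 0.30, adjusted p = 0.035). Ccnt1, which codes for cyclin T1, rose on the 75th percentile (1.0 ± 0.25, adjusted p = 0.014) and was at -0.10 ± 0.19 on spike-ins (adjusted p = 0.645). The kinase itself, Cdk9, was at -0.05 ± 0.20 (adjusted p = 0.840), and on spike-ins at -1.16 ± 0.25 (adjusted p = 0.0062). Against LPS, LPS+curcumin raised Aff4 (2.0 ± 0.39, adjusted p = 0.0078) and Ccnt1 and lowered Aff1 (-1.21 ± 0.30, adjusted p = 0.021), where 18.7% of all genes were called. With LPS alone 0 of 16 passed, against 5.73% of all genes, and 2 had an unadjusted p below 0.05, as had 15.6% of all genes. Without LPS+curcumin replicate 1, 4 were higher and 5 lower after curcumin alone, 3 and 6 against LPS, and 2 and 0 with LPS alone, where 49.6%, 54.8% and 9.5% of all genes were called.

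Of 21 tested microglia and macrophage markers, curcumin alone lowered 1, Cx3cr1, the fractalkine receptor (-2.19 ± 0.62, adjusted p = 0.025), and raised 0. On spike-ins Cx3cr1 was at -3.30 ± 0.77 (adjusted p = 0.0081). In this comparison 29.2% of all genes were called on the 75th percentile, 7.28% lower. Cx3cr1 was also lower with LPS+curcumin against LPS (-4.59 ± 0.62, adjusted p = 0.0017), where at least 1 of its probes was above background on 2 of 3 LPS+curcumin arrays. Its mean signal was 59.3 in untreated cells, 121 with LPS, 8.2 with curcumin and 4.1 with LPS+curcumin. For the interaction 0 of 21 markers passed, against 0.73% of all genes, so the 2 falls were not shown to differ. Without LPS+curcumin replicate 1, curcumin alone raised 5 markers and lowered 1, where 49.6% of all genes were called. Itgam, which codes for CD11b, was at 0.40 ± 0.31 after curcumin (adjusted p = 0.312) and Ptprc, which codes for CD45, at -0.46 ± 0.28 (adjusted p = 0.203); on spike-ins both were lower, at -0.71 ± 0.21 and -1.57 ± 0.44 (adjusted p = 0.020 and 0.015). The summed level of the 21 markers ran from 442.1 to 643.8 times the 75th percentile in untreated cells and from 619.2 to 809.6 with curcumin, and relative to the spike-ins from 179.3 to 323.3 and from 137.1 to 194.6. Of 9 tested homeostatic markers, curcumin alone lowered 3 (P2ry13, Gpr34 and Tmem119) and raised 2 (Slc2a5 and Fcrls) on the 75th percentile, against 29.2% of all genes called. Without LPS+curcumin replicate 1 it raised 3, where 49.6% of all genes were called. P2ry13 was lower (-3.48 ± 0.51, adjusted p = 0.0015) and above background on 1 of 3 curcumin arrays. P2ry12, a purine receptor, was above background on all untreated and no LPS array, at least 2.36-fold lower with LPS. It entered the tests only through its untreated arrays, so its p-value is not given.

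Over the 12 arrays, each gene centred on its own mean, the likeness of 2 patterns was measured as the root mean square (RMS) of their log2 differences among 10611 genes above background on every array. Arrays of 1 group share their treatment and arrays of 1 number their slide, so this describes these arrays and says nothing of shared function. The pattern of Irf8 was nearest to that of Pik3cg, a lipid kinase of immune cells (RMS 0.143, against a median of 1.16 for all genes), then Nrros (0.219). That of Spi1 was nearest to Apobec3 (0.216) and Stat3 (0.218), against a median of 0.958. Csf1r was nearest to Hsd17b11 (0.0895) and Glcci1 (0.125), against 0.463, and its own SD over the arrays was the smallest of the 8 (0.28 against 1.01 for Irf8). The others were nearest to Mlxipl (0.165) for Mef2c, Tlnrd1 (0.170) for Runx1, Pdp1 (0.190) for Cebpa, Gmfg (0.153) for Aif1 and Klhl18 (0.129) for Hexim1. Pik3cg differed by -1.64 ± 0.33 after curcumin and by -1.72 ± 0.33 with LPS+curcumin against LPS. It was picked for its likeness to Irf8 on these arrays, so these falls follow from that choice and are no separate result. Among the 28 pairs of members, Csf1r and Aif1 had the smallest RMS (0.354), followed by Irf8 and Runx1 (0.414), and Irf8 with Hexim1 stood at 0.508. The medians to all genes were 0.463 for Csf1r and 0.588 for Aif1, against 1.16 for Irf8, 1.11 for Runx1 and 1.09 for Hexim1.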

How the data were processed

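RNA of 12 BV2 samples, 3 in each of 4 groups, was labelled with Cy3 and read on Agilent arrays of 1 colour, per the labels' protocols. The deposited scanner files hold intensities on a linear scale, from which the authors' Agilent Feature Extraction software (version 10.5.1.1 per the file headers, 9.1 per the submitters' processing notes) had subtracted background. The deposited value table holds the same intensities within 0.397%.

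Outlier spots were dropped and spots of a probe averaged. The log2 signal was centred on each array's 75th percentile or, in a second scaling, on 174 E1A spike-in spots. Tested were probes that passed the software's well-above-background mark throughout 1 group or more (3 arrays), and the probe with the highest mean stood for its gene. Gene symbols came from the accession of each probe, looked up in RefSeq's GRCm38.p6 annotation. limma 3.58.1 in R 4.3.3, checked on simulated data, fitted 4 group means over 12 arrays (lmFit, eBayes), with two-sided p-values adjusted by Benjamini-Hochberg over 19317 genes. Within-slide differences are single values without a test. Array number limits the precision.

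Lower bounds ("at least N-fold") divide the mean of the brighter group by a floor for the dimmer one; on every array the floor is the lowest signal marked well above background, or the signal of the probe where that is higher. The members and lists were chosen with earlier results of these data known. All members are named; from each list, per comparison, up to 3 called genes with the smallest adjusted p, and always Csf1, Il34, Cebpb, Cx3cr1, Itgam, Ptprc and Cdk9; counts of 5 or fewer may be named in full. The values of 1 listed gene are not reported here. The lists cover the CSF1R pathway, other myeloid factors, P-TEFb and 7SK, and markers of microglia, homeostatic microglia, neurons, astrocytes, oligodendrocytes, endothelial cells, lymphocytes, neutrophils and fibroblasts. Of the last 7 lists, 1 of 7, 1 of 6, 2 of 6, 1 of 4, 2 of 5, 2 of 4 and 1 of 4 genes on the array were above background on all 12 arrays. Alternatives were spike-in, quantile and median scaling, the 75th percentile of always detected probes, normexp background (offset 50, on median signals because the files hold no mean signals), the value table, filters, the mean of a gene's probes, slide as a block, and single arrays left out. The block on spike-in scaling and single arrays left out on spike-in scaling were added after seeing the data.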

Additional observations from a re-analysis of the deposited data

How the results depend on the processing

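Of the 8 genes, the number called changed with the scaling. After curcumin alone, 3 were called, against 6 on spike-ins, 5 with median scaling and 1 with normexp background, where 29.2%, 49.7%, 33.3% and 4.52% of all genes were called. With LPS alone, 0 were called, and 1 on spike-ins. Against LPS, LPS+curcumin gave 3, but 0 with normexp and 1 with no filter on dim probes, where 18.7%, 0.461% and 8.28% of all were called. Against untreated cells it gave 1, but 6 on spike-ins, 6 with median scaling, 0 with normexp and 3 with no filter, where 24.5%, 47.6%, 36.0%, 0.456% and 41.1% of all were called.

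Signs turned for 5 genes, and the cause was not tested. For curcumin alone, Csf1r went from 0.09 to -1.01 on spike-ins, -0.25 with quantile, -0.74 with median and -0.0054 with always-detected-probe scaling, -0.70 with normexp and -0.033 as the mean of its probes; Aif1 went from 0.68 to -0.43 on spike-ins, -0.16 with median scaling and -0.00187 with normexp. Against LPS, LPS+curcumin moved Mef2c from 0.32 to -0.42 on spike-ins and -0.41 with median scaling, and Cebpa from 0.29 to -0.45 on both. Against untreated cells, Aif1 went from 0.28 to -0.73 on spike-ins and -0.60 with median scaling. Runx1 with LPS alone went from 0.15 to -0.12 on spike-ins.

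Same-numbered arrays, which share a slide, deviated together in 16 of 18 pairs (correlation above 0.1; median 0.24, lowest -0.02), against 10 of 36 of different number (median -0.18). The numbers were not fitted as pairs because 2 of the 18 pairs fell short of 0.1, but the slide is a batch that the block takes up. The main fit leaves slide differences in its error, so a gene that did not pass there may pass with the block. After curcumin alone, 42.1% of all genes were called with the block, against 29.2% without it. With the replicate block, 1 gene was called with LPS alone, 3 for LPS+curcumin against untreated cells, and, on spike-ins, 5 against LPS, where 7.79%, 34.3% and 25.2% of all genes were called.

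With single arrays, or all arrays of a number, left out, the genes called ran from 0 to 2 with LPS alone, 0 to 4 after curcumin alone, 0 to 4 for LPS+curcumin against LPS and 0 to 4 against untreated cells. With single arrays left out, the share of all genes called moved too. It ran from 2.99% to 9.5%, 13% to 49.6%, 5.61% to 54.8% and 10% to 53.6% in these 4 comparisons. In the last 3 comparisons the count was 0 without replicate 2, where Irf8 had an adjusted p of 0.104, 0.216 and 0.155 (limma), and against LPS also without replicate 3 (0.060). On spike-ins the counts ran from 0 to 1 with LPS alone, 1 to 5 against LPS and 2 to 7 against untreated cells. The share of all genes moved there too. Without untreated replicate 1 it was 1.78%, 10.9% and 21% in these 3 comparisons, and without LPS+curcumin replicate 1 it was 9.99%, 55% and 69.6%. Log2 differences that changed sign ran, with LPS alone, from -0.0076 to 0.31 for Runx1 (-0.36 to 0.080 on spike-ins), -0.25 to 0.19 for Csf1r and -0.081 to 0.71 for Aif1 (-0.46 to 0.43 on spike-ins). After curcumin alone, Csf1r ran from -0.069 to 0.29. Against LPS, Mef2c ran from -0.21 to 0.70, Cebpa from -0.31 to 1.09 (-1.29 to 0.46 on spike-ins), Csf1r from -0.39 to 0.16 and Aif1 from -0.53 to 0.31. Against untreated cells, Csf1r ran from -0.36 to 0.10 and Aif1 from -0.22 to 0.79.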
